A study of Mus musculus with 4 samples.

Results

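The metallothionein genes of the mouse brain, Mt1 (ENSMUSG00000031765), Mt2 (ENSMUSG00000031762) and Mt3 (ENSMUSG00000031760), were followed across the cell classes of a stroke time course. They were picked out by symbol and make up 3 of the 31053 genes of each count matrix. The matrices came from a single-cell RNA-seq study of male C57/BL6 mice, 8 weeks old per the labels, in which a filament closed the middle cerebral artery for a time and blood flow was then restored (tMCAO). Cells of the injured hemisphere were taken 1, 3 or 7 days after tMCAO, and a sham-operated group, which the series design places at day 7, served as the control. After perfusion with saline, the tissue was digested with papain, cleared of myelin debris on Percoll and loaded on the 10x Genomics 3′ assay, which counts each captured transcript once by its molecular identifier (UMI). Each of the 4 groups was 1 library, so that no value has a replicate error, and how many mice went into a library is not given in the sources used here. The intervals below are exact 95% intervals of counting error and say nothing of how mice differ. Those of levels and ratios also leave out how the cells of a class differ, and so does their overlap. No test between groups could be made.

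Metallothioneins are small proteins rich in cysteine that bind zinc and copper and buffer the free ions in the cell. Mt1 and Mt2 are made in most tissues and are induced by zinc through the transcription factor MTF1, and also by glucocorticoids, by cytokines acting through STAT3 and by oxidative stress. Mt3, first known as a growth inhibitory factor of the brain, is held to be much less inducible and is made by glia and by neurons that store zinc in their vesicles.

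The 3 genes lie in 1 row on the plus strand of chromosome 8. In the GENCODE vM21 annotation of GRCm38, Mt3 spans chr8:94152607-94154146, Mt2 chr8:94172664-94173568 and Mt1 chr8:94179082-94180327. The fourth member, Mt4 (chr8:94137197-94139031), an epithelial metallothionein, had 0 UMIs in every class of the day comparisons below. Its neighbours were low as well, with at most 26.2 CPM for Ogfod1, 29.8 CPM for Bbs2 and 53.3 CPM for Nup93 in any of the 38 pairs of class and library, where CPM stands for counts per 1000000 summed UMIs of the class. An antisense gene, Gm45774 (chr8:94170748-94173412), overlaps Mt2 on the minus strand and held at most 24 UMIs in a class and library. Mt1 and Mt2 are close paralogs, and how reads that match both were counted is not given in the sources used here, so that some reads may have been placed with the wrong member.

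The 250 bases before the RefSeq start of each member (GRCm38.p6, plus strand, 5′ to 3′) are shown because zinc is known to act on Mt1 and Mt2 through metal response elements in their promoters. Capitals mark matches to the metal response element core, TGCACNC or TGCGCNC, searched on both strands. The windows are chr8:94172368-94172617 for Mt2, chr8:94178839-94179088 for Mt1 and chr8:94152357-94152606 for Mt3.
Mt2: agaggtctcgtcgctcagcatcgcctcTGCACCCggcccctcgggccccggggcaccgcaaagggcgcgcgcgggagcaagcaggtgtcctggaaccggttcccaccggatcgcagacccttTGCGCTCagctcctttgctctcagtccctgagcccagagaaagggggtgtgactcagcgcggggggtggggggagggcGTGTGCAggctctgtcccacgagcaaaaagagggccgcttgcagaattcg
Mt1: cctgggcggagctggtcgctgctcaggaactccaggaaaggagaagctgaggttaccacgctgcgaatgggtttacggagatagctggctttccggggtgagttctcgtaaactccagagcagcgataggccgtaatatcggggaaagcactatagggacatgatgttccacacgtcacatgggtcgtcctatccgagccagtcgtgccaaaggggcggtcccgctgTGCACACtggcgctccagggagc
Mt3: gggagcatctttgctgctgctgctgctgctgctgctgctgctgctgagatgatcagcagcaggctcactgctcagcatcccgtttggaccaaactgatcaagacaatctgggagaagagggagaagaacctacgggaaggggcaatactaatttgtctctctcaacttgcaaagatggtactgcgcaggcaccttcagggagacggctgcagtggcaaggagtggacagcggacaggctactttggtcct

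The Mt2 window held 3 matches, the Mt1 window 1 and the Mt3 window 0, and 21.4% of 32851 promoters of the same length held at least 1. Counted over 300 bases, with the first 50 bases of the transcript added, Mt2 had 4 matches, Mt1 had 3 and Mt3 had 1, against at least 1 in 25.7% of promoters. The core of the antioxidant response element, TGACNNNGC, matched once in Mt2 and in 10.2% of promoters. The E-box CACGTG, the STAT letters TTCNNNGAA and the glucocorticoid receptor letters AGAACA had 0 matches in the 250 bases of the 3 members. The RefSeq start of Mt2 lies upstream of its GENCODE start, so the windows hold only for the RefSeq models. A match is a description of the sequence and not a site shown to be used.

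Cells were sorted into 17 classes by 6 marker genes each, none of which is a metallothionein. A cell entered a class when at least 3 of the markers had a UMI and at least 2 more than those of any other class, and endothelial cells were divided into arterial-like, capillary-like and venous-like zones by further markers, the rest being left unzoned. This placed 89.6%, 85.2%, 87.6% and 88.0% of the kept cells of sham and of days 1, 3 and 7. A class was used in a library from 50 cells upward, which left 10 classes (endothelial zones counted apart) on day 1 and 9 on days 3 and 7 for comparison with sham. Astrocyte-like cells numbered 60, 175 and 62 in the sham, day 1 and day 3 libraries, 12, 40 and 10 of them at the lowest number of markers the gate allows, and 42 on day 7, too few for use. Choroid plexus-like cells of day 1 were much deeper (a median of 12034.5 UMIs) than those of sham (3264) and day 7 (2546.5), and carried on average 2.21 of the 6 ependymal markers. Ependymal-like cells of day 1 carried 1.79 of the 6 astrocyte markers. The gate leaves out cells that match 2 classes about equally, and no doublet caller was run. Between 33 and 88 cell barcodes were shared by any pair of libraries, at most 0.562% of the smaller library.

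The study's stated limits, by which a cell has 200 to 3000 genes and no more than 10% of its UMIs mitochondrial, bear heavily on these genes. Cells above 3000 genes and within the mitochondrial limit were 24.3%, 19.4%, 16.4% and 14.8% of the deposited cells in sham and on days 1, 3 and 7. They held 65.7%, 61.7%, 55.7% and 54.5% of the Mt1 UMIs, and 77.9%, 85.5%, 86.8% and 74.2% of the Mt3 UMIs. Cells above the mitochondrial limit, whatever their number of genes, held 17.6%, 1.13%, 2.39% and 15.7% of the Mt3 UMIs. The kept cells were left with 4.46%, 13.3%, 10.8% and 10.0% of all Mt3 UMIs. Much of what was removed was epithelium. In the group above 3000 genes, cells that carried choroid plexus markers held 39.7%, 24.1%, 45.9% and 23.4% of all Mt3, and those with ependymal markers 22.3%, 36.6%, 15.5% and 28.9%. The values below are for the kept cells, and some of those with a limit of 6000 genes are given beside them.

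**Figure D1:**
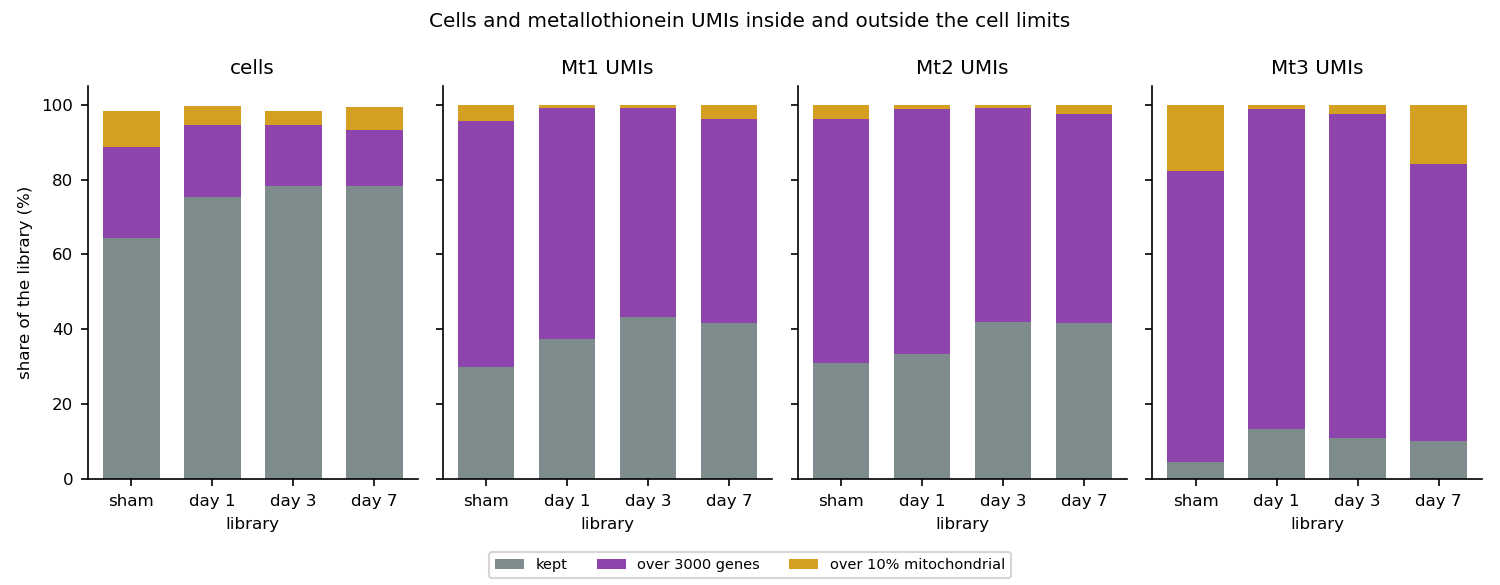
Percent of the deposited cells and of the Mt1, Mt2 and Mt3 UMIs of each library that lay in kept cells, in cells above 3000 genes within the mitochondrial limit and in cells above the mitochondrial limit. Cells below 200 genes make up any gap to 100%. Cells above 3000 genes were 14.8% to 24.3% of the cells but held 74.2% to 86.8% of the Mt3 UMIs.

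Mt1 was found in every class, and its level set the classes apart by more than 1 order of magnitude. In astrocyte-like cells it was 6344 CPM in the sham library, 11332 CPM on day 1 and 7911 CPM on day 3, the highest level in the sham and day 3 libraries among classes of at least 50 kept cells. Ependymal-like cells, too few for use there, held 6782 CPM in sham (19 cells) and 13303 CPM on day 3 (14 cells). Oligodendrocyte-like cells, the makers of myelin, held 1253, 3040, 1709 and 1270 CPM in sham and on days 1, 3 and 7. Smooth muscle-like cells of the vessel wall were close to them, at 1213, 2955, 1736 and 1106 CPM. Day 1 was thus the highest library in each of these 3 classes, and sham and day 7 the lowest in the last 2. The 42 astrocyte-like cells of day 7, under the number set for use, held 9739 CPM, above both sham and day 3. Microglia-like cells, the resident immune cells, held 957, 2998, 1259 and 722 CPM. Capillary-like endothelial cells held 892, 1053, 1216 and 723 CPM, with the highest level on day 3 rather than day 1. Pericyte-like cells, which share the capillary wall with them, held only 261, 503, 191 and 272 CPM. Arterial-like endothelial cells were at 201, 454, 228 and 164 CPM, and the choroid plexus-like cells at 225, 937 and 311 CPM on sham, day 1 and day 7.

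In the sham library the order of Mt1 ran from astrocyte-like cells down to the oligodendrocyte-like and smooth muscle-like cells, whose intervals overlapped. Microglia-like and capillary-like cells followed with overlapping intervals, then unzoned and venous-like endothelial cells, and last the pericyte-like, choroid plexus-like and arterial-like cells, of which the second overlapped both others. The highest class was 31.6-fold above the lowest. On day 1 more classes passed 50 cells, and ependymal-like cells, the ciliated lining of the ventricles, stood at the top with 13834 CPM. Border macrophage-like cells at 5150 CPM and fibroblast-like cells at 3236 CPM lay between astrocyte-like cells and the oligodendrocyte-like, microglia-like and smooth muscle-like group, whose intervals overlapped. Neuron-like cells (329 CPM) and neuroblast-like cells (275 CPM) were the lowest on that day. Among blood cells, Mt1 was 74.4 CPM in neutrophil-like cells on day 3 and 37.1 CPM, from 16 UMIs, in T or NK-like cells on day 7.

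**Figure D2:**
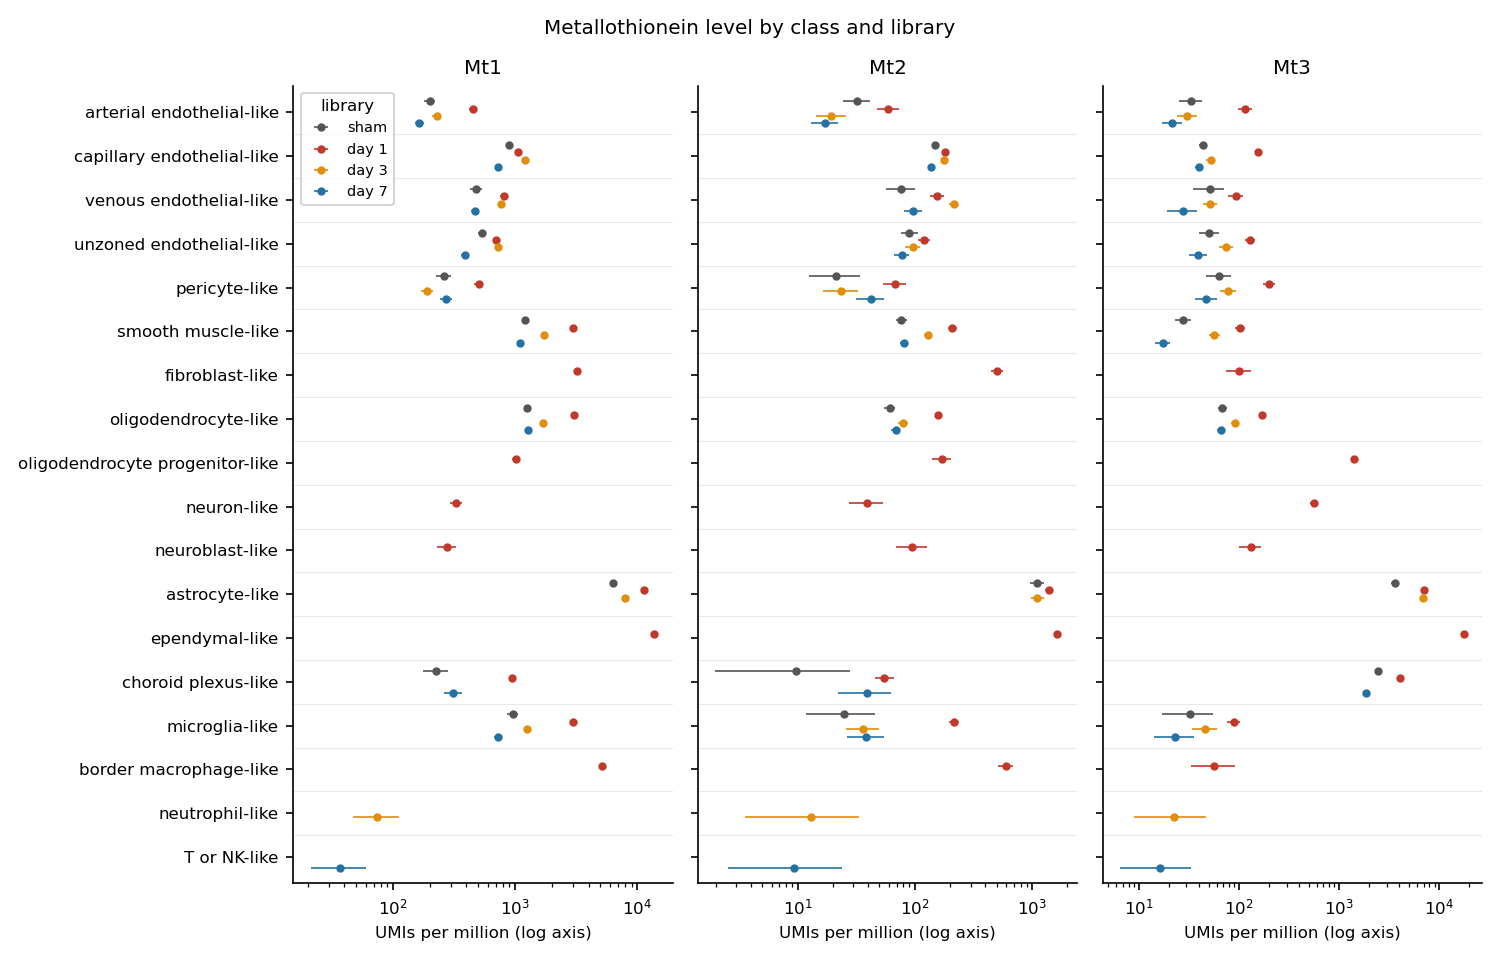
Level of Mt1, Mt2 and Mt3 (CPM, log axis) in each class of at least 50 cells in the 4 libraries; points are summed levels and bars their 95% Poisson intervals. Mt3 separates the astrocyte-like, choroid plexus-like, ependymal-like, progenitor-like and neuron-like cells from the others, whereas Mt1 spreads over all classes.

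Mt2 ordered the classes differently. Astrocyte-like cells held 1109, 1401 and 1117 CPM in the sham, day 1 and day 3 libraries, the highest class of at least 50 cells in sham and on day 3. Ependymal-like cells were above them on day 1 at 1643 CPM, and on day 3 held 1948 CPM in only 14 cells. Among classes of at least 50 cells, capillary-like cells came next in the sham library, where 19 ependymal-like cells held 853 CPM. The capillary-like cells held 149, 180, 176 and 139 CPM in sham and on days 1, 3 and 7. Venous-like cells held 76.2, 156, 215 and 96.6 CPM, and on day 3 were second to astrocyte-like cells among classes of at least 50 kept cells. With a limit of 6000 genes, 62 fibroblast-like cells of day 3 held 381 CPM (323 to 446), against 214 CPM in venous-like cells. Oligodendrocyte-like cells, so high in Mt1, had only 61.4, 157, 79.1 and 68.8 CPM of Mt2. In the sham library their interval overlapped that of venous-like cells and lay below those of unzoned and smooth muscle-like cells. Microglia-like cells held 24.9 CPM in the sham library, from 10 UMIs, then 215, 36.3 and 38.6 CPM, so that day 1 stood alone in the kept cells. With the limit of 6000 genes they held 24.3 CPM (11.7 to 44.7) in sham and 252 CPM on day 1. Day 3 then lay above sham as well, at 59.8 CPM (49.0 to 72.3), and day 7 was at 35.1 CPM. Smooth muscle-like cells had 77.1, 210.0, 130.0 and 81.1 CPM, and arterial-like cells 32.1, 59.6, 19.4 and 17.2 CPM.

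Mt3 was concentrated in the astroglial and ventricular classes. Astrocyte-like cells held 3604, 7053 and 6849 CPM in the sham, day 1 and day 3 libraries. Choroid plexus-like cells, which secrete the cerebrospinal fluid, held 2457, 4070 and 1852 CPM in the sham, day 1 and day 7 libraries. On day 1, ependymal-like cells reached 17670 CPM, and Mt3 was then also seen at 1397 CPM in oligodendrocyte progenitor-like cells and at 562 CPM in neuron-like cells. The day 1 order from ependymal-like to neuron-like had no overlapping intervals, and the highest class was 311-fold above the lowest.

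In all other classes Mt3 lay in a narrow band that moved with the library, from 28.0 to 68.4 CPM over 8 classes in sham, 56.9 to 201 CPM over 11 classes on day 1, 22.6 to 91.9 CPM over 9 on day 3 and 16.2 to 66.7 CPM over 9 on day 7. Droplets take up free RNA from broken cells, and Mt3 in these classes is treated here as possible background, so that neither expression nor a change of these cells is read from it. In endothelial cells as a whole it was 43.9, 142, 51.9 and 36.4 CPM in the kept cells of sham and of days 1, 3 and 7. It was 18.9, 39.8, 19.5 and 10.8 CPM in endothelial cells above 3000 genes, within the mitochondrial limit, of the same libraries. A list of 6 other astrocyte genes did not move with it to the same extent. In capillary-like cells the list summed to 176 CPM in sham and 241 CPM on day 1, where Mt3 was 44.3 and 154 CPM. The list is no clean measure of free RNA, since it summed to 2405 CPM in sham pericyte-like and 2136 CPM in sham smooth muscle-like cells. Which cells the Mt3 of these classes came from was not tested. Free RNA can carry Mt1 and Mt2 as well. At the Mt1 to Mt3 ratio of the astrocyte-like cells of the library (not used for day 7, with 42 such cells), the Mt3 of capillary-like cells would go with 8.73%, 23.6% and 4.98% of their Mt1 in the sham, day 1 and day 3 libraries. The corresponding part was 42.5%, 64.3% and 47.6% in pericyte-like cells and 29.1%, 41.0% and 15.5% in arterial-like cells. It was 4.06%, 5.57% and 3.81% in smooth muscle-like cells, 9.61%, 9.06% and 6.21% in oligodendrocyte-like cells and 5.94%, 4.77% and 4.22% in microglia-like cells. For Mt2 the part was 90.5%, 59.3% and 54.5% in pericyte-like cells, 31.8%, 38.6% and 25.7% in arterial-like cells and 34.3%, 21.6% and 18.9% in oligodendrocyte-like cells. It was 40.0%, 8.23% and 20.7% in microglia-like cells, 11.2%, 9.69% and 7.18% in smooth muscle-like cells and 9.13%, 17.1% and 4.85% in capillary-like cells.

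The first comparison asked how the members stood 1 day after tMCAO against sham in the same class. Of the 30 ratios of member and class, 30 had an interval wholly above 1, with a median ratio of 2.09 for Mt1, 2.31 for Mt2 and 2.64 for Mt3. Apart from astrocyte-like (1.96) and choroid plexus-like cells (1.66), the Mt3 ratios are of classes where Mt3 is treated as possible background. No change of those cells is read from them or from the Mt3 median. To set the ratios against other genes, a gene was counted as higher when its level, with 10 CPM added on each side, was at least 2-fold that of sham, among genes of at least 50 CPM in either library. By this count 17 of 30 pairs of member and class were higher on day 1, while over all genes and the same classes 3.75% of the pairs were. Mt1 and Mt2 gave 10 of these, and the other 7 were Mt3 in classes where it is treated as possible background. Some of the 17 pairs were under 50 CPM in sham, so that they entered the count only because they were high on day 1. They were Mt2 in pericyte-like, choroid plexus-like and microglia-like cells, and Mt3 in arterial-like, capillary-like, smooth muscle-like and microglia-like cells. With 50 CPM added in place of 10, 9 pairs were left, and Mt2 was no longer counted in oligodendrocyte-like, pericyte-like and choroid plexus-like cells, nor Mt3 in 5 of its 7 classes. No member was lower by the same measure in any of the 10 classes, against 4.25% of all pairs. Outside choroid plexus-like cells the median gene lay between -0.12 (venous-like) and 0.10 (astrocyte-like) on the log2 scale.

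Mt1 was counted as higher in 5 classes and Mt2 in 5. In oligodendrocyte-like cells both were, Mt1 by 2.43-fold (2.37 to 2.49) and Mt2 by 2.57-fold (2.29 to 2.88), and 2.16% of all genes were. In smooth muscle-like cells Mt1 was 2.44-fold (2.35 to 2.52) and Mt2 2.72-fold (2.38 to 3.12) the sham level, where 1.89% of genes were counted. Both classes also had their highest Mt1 and Mt2 levels on day 1. In microglia-like cells Mt1 was 3.13-fold (2.82 to 3.48) and Mt2 8.65-fold (4.65 to 18.2) the sham level, but 12.1% of all genes of this class were counted as higher, and 52 of the 360 day 1 cells and 12 of the 106 sham cells lay at the lowest number of markers. In choroid plexus-like cells Mt1 was 4.17-fold (3.29 to 5.38) the sham level and Mt2 5.72-fold (1.91 to 28.1), the latter on 3 sham UMIs, where 1.28% of genes were counted. With the limit of 6000 genes the ratio of Mt2 in these cells was 3.57 (2.89 to 4.46). The median gene of that class was lower by 0.36 on the log2 scale on day 1, and the day 1 cells were deeper and carried ependymal markers, whose part in the ratio was not tested. Mt1 in arterial-like cells was 2.26-fold (1.99 to 2.57) the sham level against 1.26% of genes, a count that was lost at 1.47-fold with the limit of 6000 genes, and Mt2 in pericyte-like cells 3.14-fold (1.84 to 5.67) against 2.64%. The latter rests on 17 sham UMIs and has the large matched part given above.

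Mt1 in pericyte-like cells (1.93) and Mt2 in arterial-like cells (1.85) did not pass 2-fold, and in the remaining classes neither gene did. With the limit of 6000 genes both of these passed, at 2.27 and 2.35, and so did Mt1 in astrocyte-like cells at 2.18. Capillary-like cells had ratios of 1.18 (1.15 to 1.21) for Mt1 and 1.20 for Mt2, the smallest of any class, where 1.38% of genes were counted as higher. Venous-like cells had 1.68 (1.48 to 1.91) for Mt1 and 2.05 for Mt2, the latter under 2-fold once 10 CPM was added, where 2.86% of genes were counted. Unzoned endothelial cells had 1.30 and 1.35, with 2.05% of genes counted. Astrocyte-like cells had the highest sham level among classes of at least 50 kept cells. In them Mt1 was 1.79-fold (1.68 to 1.90) and Mt2 1.26-fold the sham level, while 9.22% of genes were counted as higher. The 7 counts of Mt3 all fell in the classes where it is treated as possible background, from 2.51-fold in oligodendrocyte-like cells to 3.66-fold in smooth muscle-like cells. Where Mt3 was well above background it was 1.96-fold (1.80 to 2.13) the sham level in astrocyte-like cells and 1.66-fold (1.54 to 1.79) in choroid plexus-like cells, so that neither passed 2-fold. With the limit of 6000 genes Mt3 in astrocyte-like cells was 2.07-fold (1.93 to 2.22) the sham level on day 1 and 2.10-fold (1.96 to 2.26) on day 3.

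**Figure D3:**
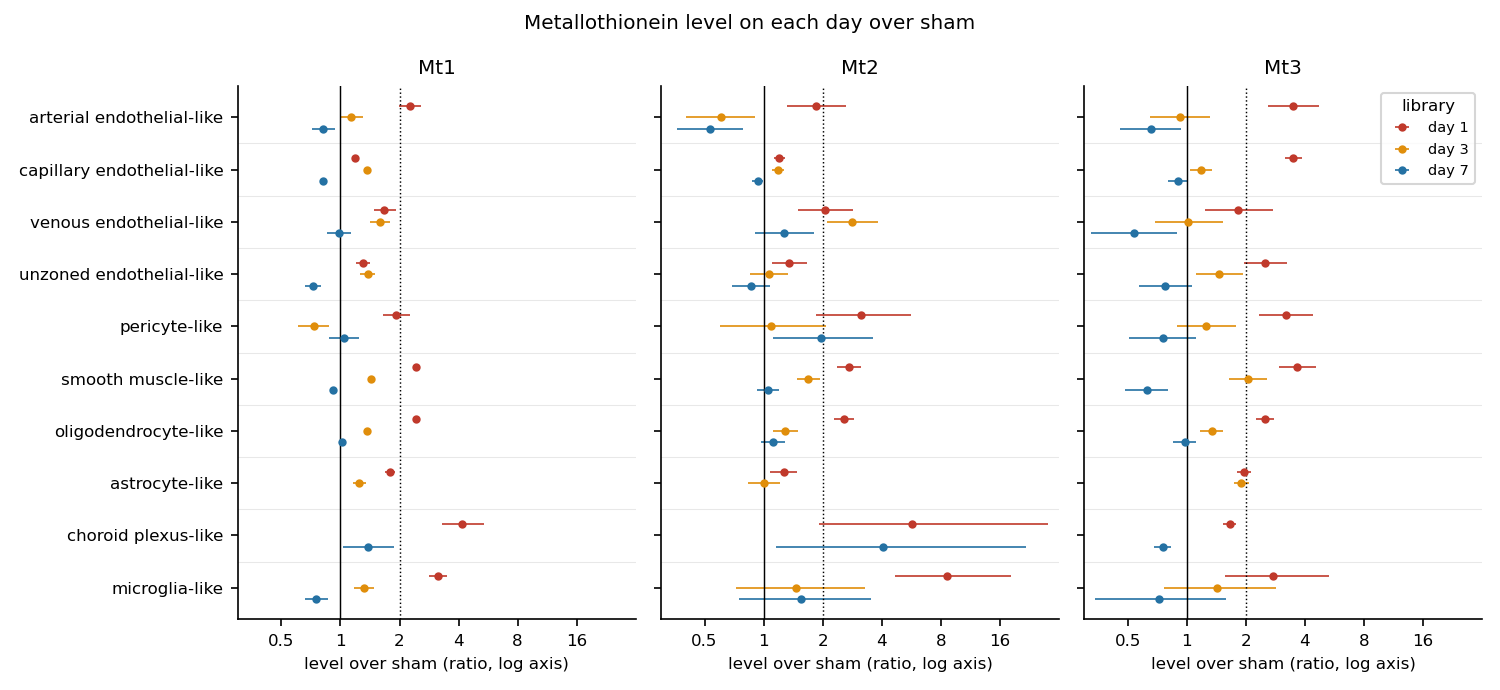
Ratio of each day to sham (log axis) for Mt1, Mt2 and Mt3 in the classes with at least 50 cells in both libraries; bars are exact 95% intervals of counting error and the line at 1 marks no difference. In the kept cells shown, all 30 intervals of day 1 lie above 1, and those of days 3 and 7 lie on both sides of it. Most Mt3 ratios are of classes where Mt3 is treated as possible background.

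On day 3 fewer ratios lay above sham. Of 27 ratios, 16 had an interval above 1, 2 below 1 and 9 that held 1, and the medians were 1.36 for Mt1, 1.18 for Mt2 and 1.34 for Mt3. Apart from that of astrocyte-like cells, these Mt3 ratios are of classes where Mt3 is treated as possible background. Of the 22 pairs with at least 50 CPM, 1 was higher, Mt2 in venous-like cells at 2.82-fold (2.11 to 3.85), while 2.60% of all pairs were higher and 2.10% lower. With the limit of 6000 genes its levels were 105.3 CPM in sham and 214 CPM on day 3, which is under 2-fold once 10 CPM is added, so that this count was lost. With that limit Mt2 in microglia-like cells was counted, at 24.3 CPM in sham, from 10 UMIs, and 59.8 CPM on day 3. Its ratio was 2.46 (1.29 to 5.28), against 1.46 in the kept cells. Mt3 in astrocyte-like cells passed 2-fold there too, at 2.10. Mt1 in capillary-like and unzoned endothelial cells (1.36 and 1.38) and Mt2 in venous-like cells were farther above sham on day 3 than on day 1. The 2 ratios below 1 were Mt1 in pericyte-like cells, 0.731 (0.609 to 0.879), and Mt2 in arterial-like cells, 0.603 (0.402 to 0.901). Mt3 in astrocyte-like cells was still 1.90-fold (1.74 to 2.08) the sham level, whereas Mt1 in the same cells was 1.25-fold.

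On day 7 most ratios were at or below 1. Of 27 ratios, 3 had an interval above 1, 11 below 1 and 13 that held 1, with medians of 0.912 for Mt1, 1.12 for Mt2 and 0.754 for Mt3. Apart from that of choroid plexus-like cells, these Mt3 ratios too are of classes with possible background. None of the 19 pairs with at least 50 CPM was higher or lower by 2-fold, against 2.22% and 1.21% of all pairs. Mt1 was at 0.810 of the sham level in capillary-like cells and at 0.726 in unzoned endothelial cells, while oligodendrocyte-like cells were at 1.01. The latter were at 1.15 (1.13 to 1.17) for Mt1 and 1.34 (1.22 to 1.47) for Mt2 with the limit of 6000 genes. Mt3 in choroid plexus-like cells was at 0.754 (0.681 to 0.834), and Mt1 in the same cells was at 1.39. The days share the sham library, so that a low or high sham value moves all 3 of them together.

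Within the endothelium Mt1 and Mt2 were higher in the capillary-like than in the arterial-like zone in all 4 libraries. Mt1 in capillary-like cells was 4.44-fold (4.00 to 4.94) that of arterial-like cells in the sham library, 2.32-fold on day 1, 5.34-fold on day 3 and 4.41-fold on day 7. With the limit of 6000 genes the sham value was 2.85-fold. The difference from venous-like cells was smaller, at 1.86-fold, 1.31-fold, 1.60-fold and 1.53-fold in the same order, and had the same direction in all 4 libraries. Mt2 in capillary-like cells was 4.64-fold, 3.02-fold, 9.08-fold and 8.09-fold that of arterial-like cells. It differed from Mt1 on day 3, when venous-like cells were above capillary-like cells, the latter being at 0.821 (0.746 to 0.903) of the former, and 11.1-fold above arterial-like cells. The venous-like cells numbered 197 in sham and 819 on day 3. A stricter subset carried both Nr2f2 and Slc38a5, which mark veins, and fewer than 2 markers of each other zone. It held only 19 and 119 of them, and was chosen after the data were seen. In this subset the 19 sham cells held 1 UMI of Mt2, the 34 cells of day 1 held 246 CPM, the 119 cells of day 3 held 145 CPM and the 39 cells of day 7 held 0 UMIs. Mt1 in it was 415, 1086, 558 and 304 CPM. These are few cells, on 38 and 73 UMIs of Mt2 on days 1 and 3, and no order of the days is read from them.

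These endothelial ratios depend on which cells are kept. With the limit of 6000 genes, Mt1 on day 1 was at 0.940 (0.919 to 0.960) of the sham level in capillary-like cells, at 0.897 in unzoned cells and at 1.00 in venous-like cells, and 1.47-fold (1.36 to 1.59) the sham level in arterial-like cells. On days 3 and 7 Mt1 in arterial-like cells was then at 0.742 (0.688 to 0.799) and 0.50 of the sham level, against 1.13 and 0.816 in the kept cells. In astrocyte-like cells on day 3 it was 1.61-fold against 1.25-fold. The day 1 ratio of Mt1 in capillary-like cells was thus above 1 with the 3000 gene limit and below 1 with the other. In the classes outside the endothelium the day 1 ratio of Mt1 was as large or larger with that limit, at 2.27 in pericyte-like, 2.45 in smooth muscle-like, 2.59 in oligodendrocyte-like, 2.18 in astrocyte-like and 3.55 in microglia-like cells, except for 3.02 in choroid plexus-like cells.

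The same limit gave enough ventricular cells for comparisons that the kept cells do not allow. Ependymal-like cells then numbered 81 in sham, 368 on day 1 and 103 on day 7. Their Mt3 was 10492 CPM, 21137 CPM and 8550 CPM in these libraries, 2.01-fold the sham level on day 1 and 0.815 of it on day 7. Their Mt1 was 9035, 15718 and 9607 CPM, 1.74-fold (1.70 to 1.78) the sham level on day 1. Choroid plexus-like cells numbered 220, 838, 369 and 250 in sham and on days 1, 3 and 7, with Mt3 at 2488, 4676, 3258 and 1976 CPM and Mt1 at 323, 975, 507 and 383 CPM. Day 1 was the highest library and day 3 the next for both genes. Neuron-like cells (106 in sham and 720 on day 1) held 215 and 234 CPM of Mt1, a ratio of 1.08 (0.939 to 1.26), and 616 and 1590 CPM of Mt3, a ratio of 2.58 (2.38 to 2.81). The kind of neuron differed as well. Of the kept neuron-like cells, 57.1% of 42 in sham and 22.5% of 258 on day 1 had Gad1, which marks inhibitory neurons, and 23.8% and 71.3% had Slc17a7, which marks excitatory ones, so that a change within a kind of neuron cannot be told apart from the mix. Mt3 in the progenitor-like cells, 106, 227 and 53 cells, was 829, 1300 and 682 CPM on sham, day 1 and day 7. On day 1 their Mt1 was 2.49-fold (2.18 to 2.85) and their Mt2 3.51-fold (2.43 to 5.18) the sham level. Mt1 in neuroblast-like cells was then 2.32-fold (1.61 to 3.44) the sham level.

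The ratio of Mt1 to Mt2 UMIs differed between classes of the same library. Each UMI is counted at the 3′ end and needs no scaling by length, but how well each transcript is captured is unknown, so only differences of the ratio between classes are read. In the sham library the ratio was 5.98 in capillary-like cells, 6.25 in arterial-like, 6.31 in venous-like and 5.72 in astrocyte-like cells. It was 15.7 in smooth muscle-like cells and 20.4 in oligodendrocyte-like cells, and it stayed near these values on the other days, at 14.1, 13.3 and 13.6 in the former and 19.3, 21.6 and 18.5 in the latter. On days 1, 3 and 7 it was 7.62, 11.7 (8.71 to 16.2) and 9.55 in arterial-like cells, whose intervals on days 3 and 7 overlapped those of smooth muscle-like cells, and 8.09 and 7.08 in astrocyte-like cells on days 1 and 3. With the limit of 6000 genes sham arterial-like cells held 1854 UMIs of Mt1 and 183 of Mt2, and sham capillary-like cells 19473 and 3062. The arterial-like ratio was then the higher of these. Against sham, arterial-like Mt1 and Mt2 were then at 1.47 and 2.35 on day 1 and at 0.742 and 0.526 on day 3. On day 7 both were at 0.50. With that limit the arterial-like ratio was thus below sham on day 1, above it on day 3 and about equal on day 7. Microglia-like cells had ratios of 38.5, 13.9, 34.7 and 18.7 in sham and on days 1, 3 and 7, the sham value resting on 10 UMIs of Mt2, and choroid plexus-like cells had 23.3, 17.03 and 8.00 in sham and on days 1 and 7, on 3, 115 and 16 UMIs of Mt2. With the limit of 6000 genes the latter held 97, 872 and 88 UMIs of Mt2 in these libraries. Their Mt1 UMIs were 1922, 14597 and 1683. On day 7 their Mt1 and Mt2 were then 1.19-fold and 1.23-fold the sham level. The low day 7 ratio of the kept cells was thus not seen with that limit. In venous-like cells the ratio was 6.31, 5.16, 3.55 and 4.88, lowest on day 3.

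The ratio of Mt1 to Mt3 UMIs differed between glial classes. In choroid plexus-like cells the ratio of Mt3 to Mt1 UMIs was 10.9 in sham, 4.34 on day 1 and 5.95 on day 7. On day 1 the ratio of Mt1 to Mt3 was 0.586 in neuron-like, 0.727 in progenitor-like and 0.783 in ependymal-like cells, and 1.61 in astrocyte-like cells. In oligodendrocyte-like cells it was 17.7 on that day, with Mt3 at a level that may be background.

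**Figure D4:**
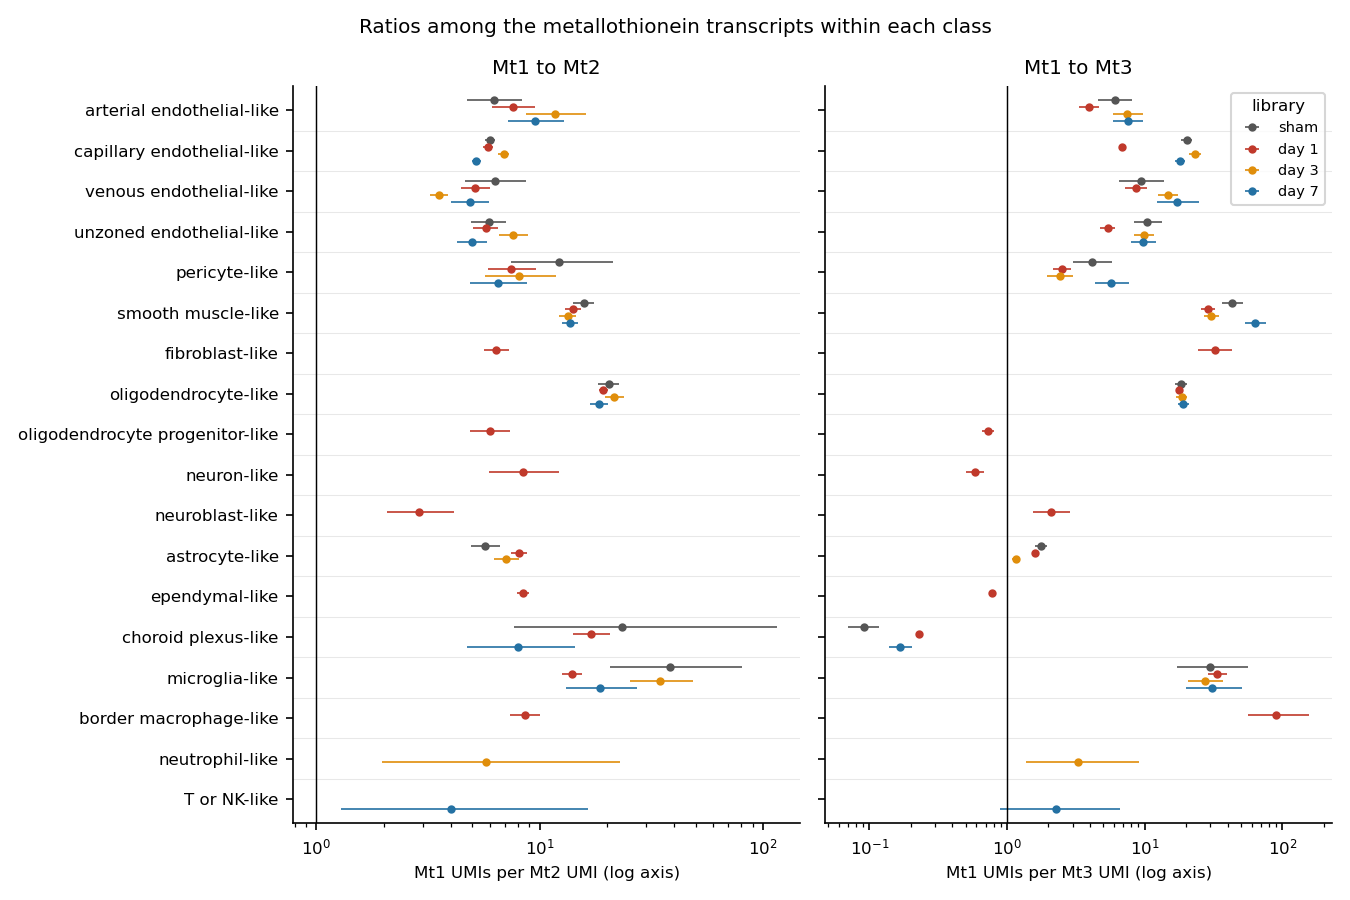
Ratios of UMIs between members (log axis) by class and library, with exact 95% intervals. The Mt1 to Mt2 ratio stays between 13.3 and 21.6 in smooth muscle-like and oligodendrocyte-like cells and between 5.20 and 6.90 in capillary-like cells, and the Mt1 to Mt3 ratio is lowest in choroid plexus-like cells.

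To see whether levels came from many cells or few, each cell was thinned to 1000 UMIs and the share of cells with a UMI of the gene was taken, leaving out shallower cells (323 capillary-like and 15 microglia-like cells in sham, for instance, and 977 and 28 on day 1). Mt1 was found in 90.9% of astrocyte-like cells in sham and 96.7% on day 1. In oligodendrocyte-like cells the share was 59.6%, 85.7%, 67.3% and 60.4% in sham and on days 1, 3 and 7, and in microglia-like cells 26.4%, 72.0%, 44.2% and 35.4%. Both were thus highest on day 1. Smooth muscle-like cells had 40.3%, 55.3%, 40.9% and 37.9%, and capillary-like cells 37.6%, 49.4%, 40.5% and 37.6%. Capillary-like cells therefore had their highest share on day 1 but their highest level on day 3. The lowest share was that of T or NK-like cells on day 7, 3 of 90 cells or 3.33% (0.693 to 9.43), at a median depth of 4682 UMIs, against 1945 for capillary-like cells of that library. Before thinning, 56.3% of capillary-like and 93.1% of oligodendrocyte-like cells in sham had an Mt1 UMI, at median depths of 3010.5 and 7912.5 UMIs, and 41.5% and 89.4% of microglia-like cells had one in sham and on day 1.

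**Figure D5:**
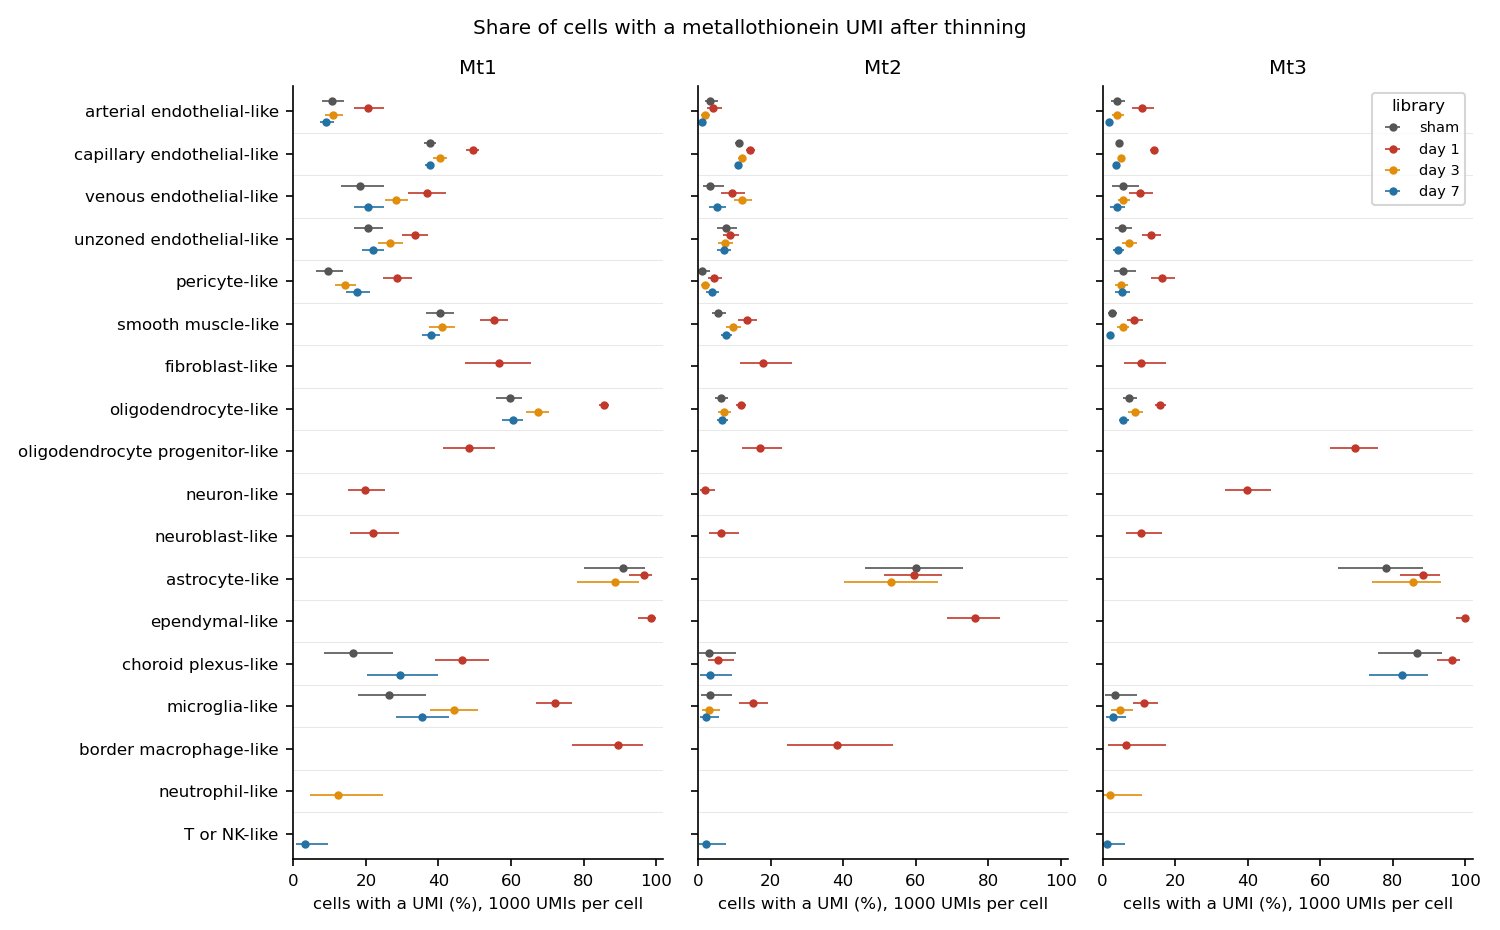
Percent of cells with a UMI of Mt1, Mt2 or Mt3 after thinning each cell to 1000 UMIs, by class and library, with exact binomial 95% intervals. The Mt1 share of oligodendrocyte-like cells goes from 59.6% in sham to 85.7% on day 1, and that of microglia-like cells from 26.4% to 72.0%.

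Mt3 was found in 78.2% of astrocyte-like and 86.6% of choroid plexus-like cells in sham, and in 88.2% and 96.2% of them on day 1. On that day it was seen in 140 of 140 ependymal-like cells, in 69.7% of progenitor-like and in 39.9% of neuron-like cells. The share in capillary-like cells, given as a background level, was 4.55%, 14.1%, 5.09% and 3.80% in sham and on days 1, 3 and 7. Mt2 was found in 60.0% of astrocyte-like cells in sham and 59.5% on day 1, and in 3.30% of microglia-like cells in sham and 15.1% on day 1. Its share in capillary-like cells was 11.2%, 14.4%, 12.1% and 11.0% in the 4 libraries, highest on day 1.

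Mt1 and Mt2 tended to be seen in the same cells of a class. In sham, 20.4% of the capillary-like cells with Mt1 had Mt2 as well, against 5.63% of those without. On day 1 the figures were 21.6% and 3.63% in smooth muscle-like cells and 13.2% and 3.70% in oligodendrocyte-like cells. Not every class had this difference. The shares were 0% and 1.27% in sham pericyte-like cells and 3.70% and 3.08% in choroid plexus-like cells on day 7. They were 0% and 0% in neutrophil-like cells on day 3, and 0% and 2.30% in T or NK-like cells on day 7, with 6 and 3 Mt1 cells. Cells of a library are not replicates, and these shares are a description. The Mt1 of capillary-like cells was uneven, since in sham the 10% of thinned cells with the most held 52.7% of the UMIs and the highest cell had 26.

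Other genes of metal handling and of the pathways that act on Mt1 and Mt2 were followed as lists, by the same 2-fold count over the same classes and against the same shares of all genes as above. As with the members, a pair under 50 CPM in sham entered the count only when the day was high. The number of pairs therefore differs by day. The regulators (Mtf1, Nr3c1, Stat3, Nfe2l2, Il6st and Hif1a) were higher in 0 of 45 pairs on day 1 and lower in 5, among them Nr3c1, the glucocorticoid receptor, which was at 378 CPM in sham and 135 CPM on day 1 in venous-like cells. They were higher in 1 and lower in 2 of 44 pairs on day 3, and higher in 2 and lower in 0 of 41 on day 7. Mtf1, the zinc sensor, reached 50 CPM only in oligodendrocyte-like cells, with 84.6 CPM in sham and 44.7 CPM on day 1, a log2 ratio of -0.79. The zinc exporters of the Slc30a family were higher in 0 of 12 pairs on days 1 and 3 and in 1 of 14 on day 7. That pair was Slc30a1, the exporter of the plasma membrane and a further MTF1 target, in arterial-like cells, with 184 CPM in sham, 348 CPM on day 1, 251 CPM on day 3 and 385 CPM on day 7. In capillary-like cells Slc30a1 was 268, 385, 359 and 464 CPM, highest on day 7, when Mt1 was at its lowest there.

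The zinc importers of the Slc39a family were higher in 7 of 32 pairs on day 1, 6 of 30 on day 3 and 0 of 27 on day 7, and none was lower. Apart from Slc39a10 in pericyte-like and astrocyte-like cells, all of these were Slc39a1, which brings zinc into the cell. In capillary-like cells Slc39a1 was 63.0 CPM in sham, 154 CPM on day 1 and 200 CPM on day 3, and in venous-like cells 82.4, 198 and 276 CPM. The copper genes were higher in 6 of 52, 3 of 47 and 2 of 48 pairs on days 1, 3 and 7. Ceruloplasmin (Cp), a copper-carrying oxidase, was among them in 6 pairs, in venous-like cells on day 3 with 863 CPM against 351 CPM in sham.

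Genes that oxidative stress induces through NRF2 were higher in 0 and lower in 1 of 8 pairs on day 3, and neither on day 7. On day 1 only Hmox1 of this list, which breaks down haem, was higher, in 4 of the 12 pairs. It was 5.04 CPM in sham and 237 CPM on day 1 in pericyte-like cells, and 82.0 and 447 CPM in microglia-like cells. Genes induced by glucocorticoids were higher in 11 of 39 pairs on day 1, 1 of 30 on day 3 and 8 of 36 on day 7. They were lower in 1, 2 and 1 pairs on these days. Sgk1 in oligodendrocyte-like cells, for instance, was at 396 CPM in sham, 1415 CPM on day 1 and 1556 CPM on day 7. Tsc22d3 was lower in microglia-like cells on day 1, at 173 CPM against 818 CPM. Genes induced through STAT3 were lower in 1, 1 and 0 pairs on days 1, 3 and 7. They were higher in 15 of 32 pairs on day 1, 21 of 33 on day 3 and 2 of 23 on day 7. They include Lcn2, which binds iron carriers and was 741 CPM in sham and 9401 CPM on day 3 in venous-like cells, and Serpina3n, a protease inhibitor, which was 1.76 CPM in sham and 431 CPM on day 1 in oligodendrocyte-like cells. The members were thus counted most often on day 1, and the STAT3 list on day 3. Of the 17 member counts of day 1, 7 were Mt3 where it is treated as possible background. Pairs low in sham, such as the Hmox1 of pericyte-like and the Serpina3n of oligodendrocyte-like cells, entered only because the day was high. No difference in timing is read from these counts. Immediate-early genes, which tissue digestion can raise, were higher in 12 and lower in 10 of 78 pairs on day 1, lower in 7 of 68 on day 3 and higher in 18 of 69 on day 7. Of the 10 lower pairs of day 1, 7 were in microglia-like cells, where Fos was 6940 CPM in sham and 1275 CPM on day 1, and its part in the other ratios of these cells was not tested.

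The genes whose levels ran most like each member over the 46 pairs of class and library were found by Pearson correlation of log levels among 10217 genes. For Mt1 they were Pxmp2 (r = 0.72), C4b (0.70), Gcsh (0.69), Slc27a1 (0.69) and Acot13 (0.68), and for Mt2 Gcsh (0.78), Cpe (0.77), Pxmp2 (0.74), Oplah (0.73) and Gja1 (0.73), the last a gate marker of astrocytes. For Mt3 they included Ntrk2 (0.95), Wwc1 (0.93), Sdsl (0.91) and Fam213a (0.89). Mt1 and Mt2 were more alike (0.88) than either was to any of these genes, while Mt3 had 0.50 with Mt1 and 0.53 with Mt2. The pairs share libraries and free RNA, so that the correlations describe these profiles only.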

How the data were processed

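For each of 4 libraries the authors deposited raw UMI counts of the called cells, with no normalization. The submitters' processing notes name Cell Ranger 3.0.1, Seurat 4.1.2 and a human build, whereas the file headers name Cell Ranger 4.0.0 and the gene IDs are mouse IDs, 30934 of 31053 of which (99.6%) matched GENCODE vM21. The libraries held 11744, 17780, 11983 and 17922 cells (sham, days 1, 3 and 7) and 69392755 to 104023002 UMIs. Cells within the limits of 200 to 3000 genes and 10% mitochondrial UMIs numbered 7562, 13376, 9378 and 14044. The cell numbers stated in the methods lie between those deposited and those kept, in every library. UMIs were summed per class and library and expressed as CPM. Levels have Poisson intervals, ratios conditional binomial intervals and shares Clopper-Pearson intervals. Python 3.11.15, numpy 2.4.6, pandas 2.3.3, scipy 1.17.1 and matplotlib 3.10.9 were used. The calculation of the ratio intervals was checked on simulated Poisson counts, the counting error that the intervals assume. That check covers no spread between cells or mice. The genes named are the members, the lists and their neighbours on the chromosome, and the 5 genes most like each member, of which 1 is not reported here. Members, lists, markers and tests were chosen with earlier results of these data known. Another 28 settings were tried, and 1 more, a stricter venous zone, was added after the data were seen.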

Additional observations from a re-analysis of the deposited data

Results flagged for a closer look

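Some classes stood on opposite sides of sham in the same library, each with an interval that left out 1, and the difference between the classes itself was not tested. On day 3, Mt1 was at 1.59 times the sham level in venous-like cells and at 0.731 in pericyte-like cells. With the limit of 6000 genes these ratios were 1.10 (1.03 to 1.17) and 0.723 (0.605 to 0.864). In the stricter venous subset the Mt1 ratio was 1.34 (0.925 to 2.01), an interval that holds 1. On the same day Mt2 was at 2.82 times the sham level in venous-like cells and at 0.603 in arterial-like cells. On day 7, Mt1 was at 1.39 times the sham level in choroid plexus-like cells and at 0.726 in unzoned endothelial cells, and Mt2 was at 4.04 and 0.534 in choroid plexus-like and arterial-like cells. The Mt2 value of the choroid plexus-like cells rests on 3 sham UMIs and 16 UMIs of day 7, and with the limit of 6000 genes, on 97 and 88 UMIs, it was 1.23 (0.909 to 1.66). With 1 library per group no outlying sample could be looked for.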

How the results depend on the processing

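No paired analysis was possible because each group has 1 library. Leaving aside the subtraction of the lowest class, the day 1 ratio stayed above 1 under the settings tried in 7 of 10 classes for Mt1, the others being the capillary-like and unzoned cells, below 1 with 6000 genes, and the venous-like cells, at 1.00 after rounding, and in 10 of 10 for Mt2 and Mt3. Astrocyte-like cells fell under 50 cells with at least 4 markers and with 5% mitochondrial UMIs, and choroid plexus-like cells with the latter and when no other class had more than 1 marker, so that these settings say nothing of them. With a limit of 6000 genes, the day 1 ratio of Mt1 became 0.94 in capillary-like cells (1.18 as reported), 2.59 in oligodendrocyte-like cells (2.43) and 3.55 in microglia-like cells (3.13). With the same limit, Mt2 on day 3 in venous-like cells became 2.03 (2.82) and was no longer counted at 2-fold, and in sham the capillary to arterial ratio of Mt1 became 2.85 (4.44), Mt1 to Mt2 in capillary-like cells 6.36 (5.98) and Mt3 to Mt1 in choroid plexus-like cells 7.7 (10.9). The capillary ratio of Mt1 was 1.14 with at most 5% mitochondrial UMIs, 1.39 as a mean over cells, 1.23 without mitochondrial, haemoglobin and ribosomal genes, 1.12 with the lowest class subtracted and 1.22 centred on the median gene. The oligodendrocyte ratio was 2.49 as a mean over cells, 2.63 subtracted and 2.49 centred, and the microglia ratio 2.5 when no other class had more than 1 marker, 3.96 as a mean over cells and 3.6 subtracted. Mt3 in astrocyte-like cells on day 1 was 1.65 as a mean over cells (1.96). The sham capillary to arterial ratio was 5.2 when no other class had more than 1 marker, and Mt1 to Mt2 in oligodendrocyte-like cells was 18.1 at 5% mitochondrial UMIs (20.4). The sham share of capillary-like cells with Mt1 was 23.5% thinned to 500 UMIs and 56.3% without thinning (37.6%), and that of oligodendrocyte-like cells 39.1% and 93.1% (59.6%). Day 1 had 608 pairs of gene and class at 2-fold with 50 CPM added and 2909 with genes of at least 10 CPM (1329), and 9 pairs of member and class with 50 CPM added (17). Of the 84 ratios, 35 moved beyond their interval at 6000 genes, 23 as a mean over cells and 0 with at least 2 markers, and 39 of 76 did with the lowest class subtracted. The causes were not tested. Few UMIs limit the precision of Mt2 in choroid plexus-like, microglia-like and pericyte-like cells, with 3, 10 and 17 in sham.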
